A study of Mus musculus with 2 samples.

Results

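The suppressor of cytokine signalling (SOCS) family was examined in mouse macrophages, from total RNA of the cytosolic fraction. The family comprises 8 genes, Socs1 to Socs7 and Cish, and all 8 were found by symbol among 55536 annotated genes, of which 22028 were protein-coding. Their 40 annotated isoforms were followed alongside the gene totals. The members were matched by gene symbol, and no measured value enters that rule.

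SOCS proteins are feedback inhibitors of cytokine receptors that signal through Janus kinases (JAKs) and STAT transcription factors. Each carries a central SH2 domain, which docks on phosphorylated tyrosines, and a carboxy-terminal SOCS box, which recruits elongins B and C and a cullin-based ubiquitin ligase to the bound target. SOCS1 and SOCS3 also hold a kinase inhibitory region that blocks JAKs directly, and in macrophages SOCS3 is known for limiting signalling by interleukin 6 and SOCS1 for limiting signalling by interferons and Toll-like receptors.

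The study measured ribosomal-RNA-depleted total RNA from the cytosol of bone-marrow-derived macrophages of the C57BL/6J strain, exposed to 100 ng/ml lipid A for 75 minutes. Lipid A is the part of bacterial lipopolysaccharide that activates Toll-like receptor 4. There was 1 group of 2 libraries, prepared from 1 µg of RNA each, which the labels number as biological replicates 1 and 2 and list as separate biosamples under a shared donor identifier. Whether they stand for different mice or different cultures is not stated, and the SD over them may therefore be a technical spread. No unstimulated cells, other times or other fractions were analysed here, so the levels below are not changes caused by lipid A, and no test between conditions was possible. In bulk RNA of this kind, fewer cells of a type and less RNA per cell cannot be told apart.

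The libraries held 55596625 and 50157146 expected counts over annotated genes in replicates 1 and 2. Levels are given as TPM, a length-corrected measure of each transcript's share of its library. The 7SL RNA genes Rn7s1 and Rn7s2, which encode the RNA of the signal recognition particle, took 69.8% of all TPM in replicate 1 and 60.5% in replicate 2. Deposited TPM of an mRNA is 4.63 times lower in replicate 1 and 4.58 times lower in replicate 2 than when TPM is rescaled over the nuclear-encoded protein-coding genes. That factor covers 7SL together with all other RNAs left out of the rescaling, and is not set by 7SL alone. The 10 macrophage markers were all at 1 TPM or more, with summed TPM of 6685 and 7050, and 4 of 34 markers of other cell types reached 1 TPM, led by the neutrophil gene S100a9 at 17.1 and 17.4 TPM. The nuclear noncoding RNA Malat1 stood at 158 TPM in replicate 1 and 799 TPM in replicate 2, and Neat1 had 14.8 and 64.6 TPM. For Malat1 the log2 ratio of replicate 2 over replicate 1 was 2.23 in counts scaled for depth.

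The level of the family was carried by a single gene. Socs3 had 219 TPM in replicate 1 and 223 TPM in replicate 2 (221 ± 3.0, SD, n = 2), which placed it above 99.3% of protein-coding genes. It supplied 88.1% and 88.8% of the TPM summed over the 8 members, and the other 7 members together reached 29.5 and 28.2 TPM. The Socs3 mean was 15.8 times that of Socs6, the next member, and 169 times that of Socs1, the other member with a kinase inhibitory region. With a mean of 1 TPM as the threshold, 7 of the 8 members were detected, against a background of 39.3% of protein-coding genes, and Socs2 was below it.

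Promoter sequence is shown for Socs3, the member of highest level, and a short stretch for Cish, a known STAT target. Both come from RefSeq on GRCm38.p6, where a promoter window of 300 bases was given for 4 of the 8 members (Socs1, Socs3, Socs4 and Cish). Each is written 5′ to 3′ on the gene's own strand, and the Socs3 run ends at the base before the RefSeq start. Both stretches lie inside the genes as annotated for the levels, which begin further upstream, at chr11:117970047 for Socs3 and chr9:107296026 for Cish. The Cish stretch is in the first exon of its leading isoform, Cish-201. Capitals mark letters that match TTCNNNGAA, the core that STAT dimers bind.
Socs3, chr11:117969367-117969616, minus strand: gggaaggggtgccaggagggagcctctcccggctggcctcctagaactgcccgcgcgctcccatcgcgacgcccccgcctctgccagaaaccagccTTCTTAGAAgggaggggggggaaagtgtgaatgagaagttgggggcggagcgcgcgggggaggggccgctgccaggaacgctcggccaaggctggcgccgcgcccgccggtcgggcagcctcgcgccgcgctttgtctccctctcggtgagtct
Cish, chr9:107296657-107296680, plus strand: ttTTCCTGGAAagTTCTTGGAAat
Both strands of the 4 windows were searched. Socs3 had 1 match to TTCNNNGAA, beginning at -154 relative to the RefSeq start at 0, and Cish had 2, beginning at 0 and 11. Those letters occurred in 7.89% of the 16522 windows of protein-coding genes, and they were not found in the windows of Socs1 and Socs4. TGANTCA, the core bound by AP-1 and found in 7.1% of windows, was in none of the 4. The matches describe letters and not binding.

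Socs3, which binds the interleukin 6 receptor chain Il6st and the receptors for granulocyte colony-stimulating factor and leptin, lies at chr11:117966079-117970047 on the minus strand (ENSMUSG00000053113.3; all gene coordinates are mm10, annotation M21). It drew 59269 expected counts in replicate 1 and 50825 in replicate 2, which scaled for depth gave a ratio of replicate 2 over replicate 1 of 0.981 with a 95% counting interval of 0.970 to 0.993. The libraries thus lay within a few percent of each other for this gene in the first quantification. The second gave a ratio of 0.923, outside that interval. On the scale of nuclear-encoded protein-coding genes Socs3 stood at 1014 and 1022 TPM. The 3 protein-coding genes closest to it in level were Eif1, a translation initiation factor with 232 and 218 TPM, Anxa5, the phosphatidylserine-binding annexin with 204 and 220 TPM, and Cst3, the protease inhibitor cystatin C with 204 and 225 TPM. They are named for level alone.

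Socs1, which inhibits JAKs below interferon receptors, was near the bottom of the family. It had 1.44 TPM in replicate 1 and 1.18 TPM in replicate 2 (1.31 ± 0.184, SD, n = 2), from 430 and 295 expected counts (ENSMUSG00000038037.5, chr16:10782240-10785536, minus strand). Both libraries were above 1 TPM by a small margin in the first quantification. In the second, where deposited TPM was lower for all 8 members, Socs1 had 0.709 and 0.452 TPM, under that threshold. On the scale of nuclear-encoded protein-coding genes its mean was 6.03 TPM in the first quantification and 5.83 TPM in the second. In the first, Socs1 ranked above 62.9% of protein-coding genes. Among the 8657 protein-coding genes at 1 TPM or more, only 5.59% had a lower level.

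Cish encodes CIS, a target of STAT5 that binds receptors of growth hormone, erythropoietin and interleukin 2, and it was measured at 4.02 and 4.19 TPM (4.11 ± 0.120, SD, n = 2). Its expected counts were 1253 and 1179 (ENSMUSG00000032578.7, chr9:107296026-107302784, plus strand). Cish came after Socs6 in the family, whose mean was 3.42 times higher. Socs2, which restrains growth hormone signalling, had 0.340 and 0.270 TPM (0.305 ± 0.0495, SD, n = 2) from 81 and 54 expected counts (ENSMUSG00000020027.18, chr10:95385362-95417180, minus strand). It was the member of lowest level in both libraries, and its value on the scale of nuclear-encoded protein-coding genes averaged 1.41 TPM.

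The remaining members are known mainly for acting on growth factor receptors and insulin signalling rather than on cytokine receptors. Socs6, which binds the receptor tyrosine kinase KIT and insulin receptor substrates, led this branch with 14.4 and 13.7 TPM (14 ± 0.502, SD, n = 2) from 6347 and 4826 expected counts (ENSMUSG00000056153.15, chr18:88665224-88927481, minus strand). It alone made up 48.7% and 48.5% of the TPM of the 7 members other than Socs3. Socs6 and Socs3 were the 2 members at or above 6.14 TPM, the median of detected protein-coding genes.

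Socs4, a binder of the epidermal growth factor receptor, had 3.99 and 3.42 TPM (3.71 ± 0.403, SD, n = 2), from 3083 and 2226 expected counts (ENSMUSG00000048379.9, chr14:47276931-47296102, plus strand). Socs5, its closest relative, had 2.86 and 3.36 TPM (3.11 ± 0.354, SD, n = 2), from 1114 and 1030 expected counts (ENSMUSG00000037104.9, chr17:87107679-87137839, plus strand). Socs7, which interacts with insulin receptor substrates, had 2.50 and 2.09 TPM (2.30 ± 0.290, SD, n = 2), from 1874 and 1359 expected counts (ENSMUSG00000038485.5, chr11:97362551-97398542, plus strand). All of these were above 1 TPM in both libraries and below the median of detected genes.

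The order of mean levels was Socs3, Socs6, Cish, Socs4, Socs5, Socs7, Socs1 and Socs2. Neighbours were set apart where the gap between means exceeded the sum of their SDs. Cish and Socs4 did not differ beyond that spread, with a gap of 0.400 TPM against summed SDs of 0.523 TPM, nor did Socs4 and Socs5, with 0.595 TPM against 0.757 TPM. The other neighbours were separated in the first quantification, which was derived from transcriptome alignments. In the second, made directly from the reads, Socs5 and Socs7 also fell within their spread, with a gap of 3.39 TPM against 4.15 TPM on the scale of nuclear-encoded protein-coding genes.

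**Figure D1:**
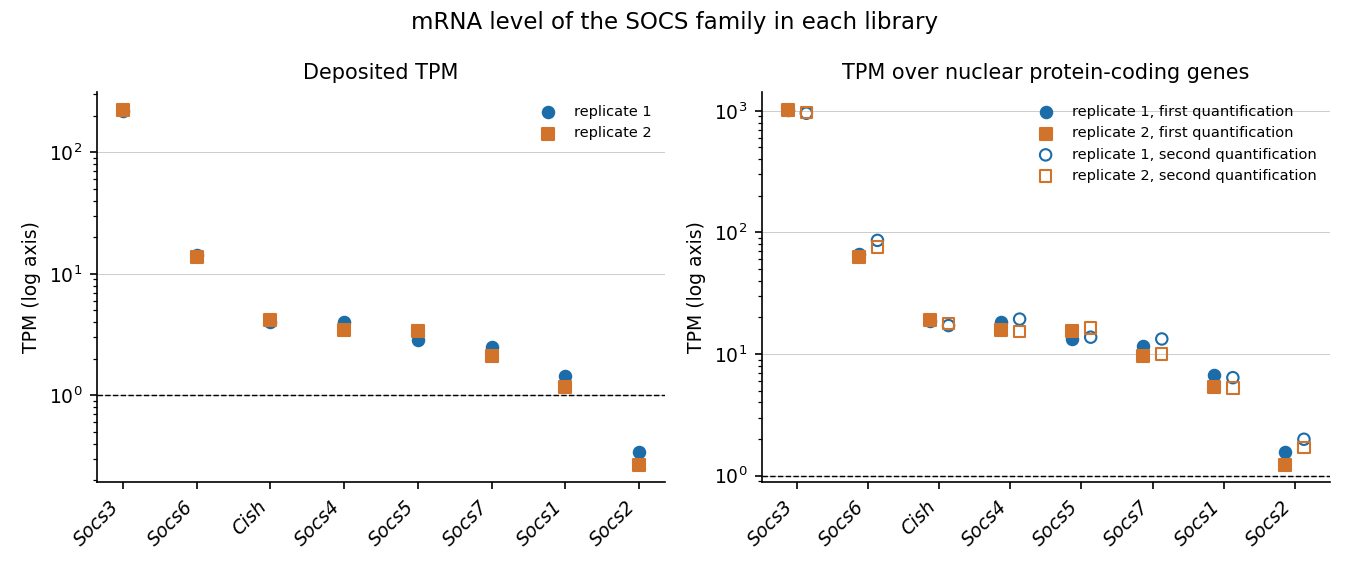
TPM of the 8 members (log axes), ordered by mean; circles are replicate 1 and squares replicate 2, and the dashed line is 1 TPM. Left, deposited TPM, where Socs3 stood at 219 and 223 TPM and Socs2 alone was under 1 TPM; right, TPM over nuclear-encoded protein-coding genes in the first (filled) and second (open) quantification, where all 8 members exceeded 1 TPM.

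The plot of levels by library shows the step between Socs3 and Socs6 and a second, smaller step to the cluster of Cish, Socs4 and Socs5. The symbols of the 2 libraries overlap for Socs3, Socs6 and Cish and stand slightly apart for the lower members.

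The libraries were less than 2-fold apart for the family, which was so for most genes. Of the 7 members averaging at least 100 counts, 0 were over 2-fold apart. The background was 1.6% of 10094 genes, so this count does not set the family apart. Their log2 ratios of replicate 2 over replicate 1 ran from -0.35 for Socs1 to 0.11 for Cish, with a median of -0.20, beside a median of -0.03 over 9701 protein-coding genes of that depth. Cish at 0.11 and Socs5 at 0.08 were the 2 members with a higher scaled count in replicate 2.

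The other members were nearer to or below the middle of all genes. Socs3 had a log2 ratio of -0.03, Socs6 of -0.20, Socs7 of -0.27 and Socs4 of -0.28. All 7 values lay within -0.46 to 0.57, the middle 95% of protein-coding genes. Of these genes, 5.89% had a lower ratio than Socs1, 10.4% than Socs4, 11.0% than Socs7 and 18.7% than Socs6. For Socs3, Socs5 and Cish it was 50.1%, 69.0% and 72.6%. The counting intervals of Socs1, Socs3, Socs4, Socs6 and Socs7 excluded a ratio of 1, and the same share over all genes is not given here. These intervals cover counting error only, and reads from amplified fragments are not independent molecules. Socs2, below the count limit, had a ratio of 0.765 with an interval of 0.530 to 1.09.

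**Figure D2:**
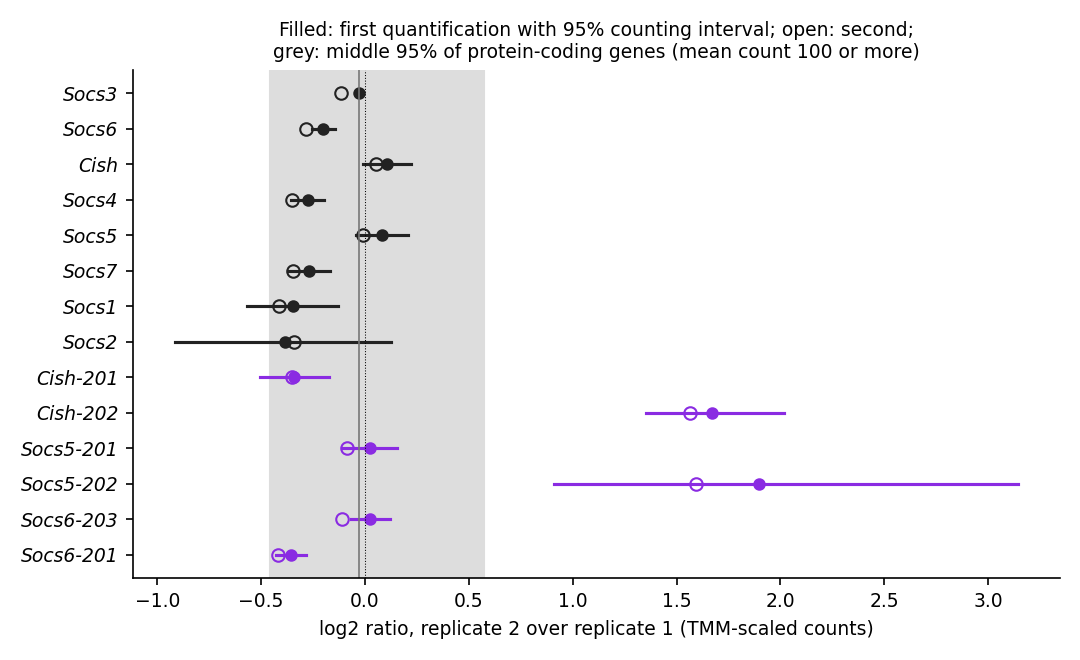
Log2 ratio of replicate 2 over replicate 1 for the 8 genes (black) and for 6 isoforms (purple), with 95% counting intervals; filled points are the first and open points the second quantification. The grey band spans the middle 95% of protein-coding genes averaging at least 100 counts, and among the points shown Cish-202 and Socs5-202 lie to its right.

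In the plot of ratios the gene totals cluster inside the band, and the points of the second quantification lie close to those of the first. The points outside the band are noncoding isoforms, which a gene total does not show.

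Isoforms were resolved next, by the deposited percentage of each gene's TPM. In the first quantification 23 of the 40 isoforms had a count above 0, and the isoform with the largest share was the same in both quantifications for all 8 members. A single coding isoform held 90% or more in both libraries for 4 members in the first quantification. The shares of all isoforms and genes that meet these criteria are not given here, so the counts describe the family only. Socs3-201 held 99.95% and 99.93%, and Socs4-201 held 100% in each library. Socs1-201 held 97.2% and 96.7%, and Socs7-201 held 94.6% and 98.1%.

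Small isoforms of those genes rested on few counts. Socs1-202, which has the same coding length of 636 bases as Socs1-201, had 12.8 and 10.2 counts with a posterior SD of 76.1% and 73.5% of the count. In the second quantification Socs1-202 had 45.9 and 33.4 counts, or 9.60% and 10.1% of TPM, which left Socs1-201 at 90.4% and 89.9%. Socs7-202, a processed transcript, had 4.49 and 1.12 counts, and at a length of 506 bases a share of 5.42% and 1.92%. The second quantification gave Socs7-202 18.8% in replicate 1 and 6.08% in replicate 2. It gave Socs4-202, at 0 counts in the first, 9.36% of TPM from 15.5 counts in replicate 1 and 0 in replicate 2.

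Socs2, the lowest member, showed an isoform in 1 library only. Socs2-201 held 98.5% in replicate 1 and 80.1% in replicate 2, and Socs2-213, with the same coding length of 594 bases, had 0 and 9.99 counts. The posterior SD of that count was 71.9% of its value. The second quantification also had Socs2-213 at 0 in replicate 1, with 12.8 counts and 16.2% of TPM in replicate 2. Socs2-206, a retained-intron isoform, had 1.00 and 0 counts in the first quantification, and 10.7% and 12.8% of TPM in the second.

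Socs6 mRNA was spread over several isoforms that share 1 coding sequence length. Socs6-203 held 46.2% and 51.4%, Socs6-201 held 38.8% and 33.2%, and Socs6-202 held 11.6% and 11.7%, and all 3 have a coding length of 1599 bases. They differ in their upstream exons and in the length of the 3′ untranslated region, which is 693 bases in Socs6-203, 1014 in Socs6-202 and 4019 in Socs6-201. The pentamer ATTTA, the core of AU-rich elements that mark short-lived mRNAs, occurred 1, 2 and 10 times in them.

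Socs6-201, the longest at 6036 bases, had 3771 and 2576 counts in the first quantification, and Socs6-203 had 2002 and 1781. The second quantification gave Socs6-201 3105 and 2153 counts and Socs6-203 2812 and 2410, so the order of the isoforms by counts was reversed there in replicate 2. The ratio of replicate 2 over replicate 1 was 0.782 for Socs6-201, with a counting interval of 0.743 to 0.822, and 1.02 for Socs6-203, with an interval of 0.955 to 1.09. In the second quantification the ratios were 0.748 and 0.925. Shares differed between quantifications. Socs6-201 held 22.2% and 20.8% of TPM in the second, and Socs6-208, at 0 counts in both libraries in the first, held 17.0% and 12.8% there. Socs6-205 held 3.10% and 3.44% in the first quantification and 5.45% and 5.39% in the second.

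Cish combined an uncertain division of its coding isoforms with a difference between libraries in a noncoding one. Cish-201, the full coding form of 771 coding bases, held 59.4% and 46.8%. Cish-204, which lacks the middle exon of Cish-201 and has a coding length of 186 bases, held 35.6% and 37.3%. In the second quantification Cish-201 held 89.2% and 74.2% and Cish-204 only 3.79% and 3.71%. The posterior SD of the first quantification was 8.71% and 8.67% of the Cish-204 count, much smaller than this disagreement.

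Cish-202, a processed transcript, held 4.98% of Cish TPM in replicate 1 and 15.9% in replicate 2. It had 104 and 291 counts, a ratio of 3.18 with an interval of 2.55 to 4.05, and the second quantification gave 2.96. Of its 4697 bases, 2772 lie in introns of Cish-201. The coding form Cish-201 moved the other way, with a ratio of 0.790 and an interval of 0.703 to 0.886, so the gene total of Cish, at 0.11 on the log2 scale, combined a lower coding and a higher noncoding isoform in replicate 2.

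**Figure D3:**
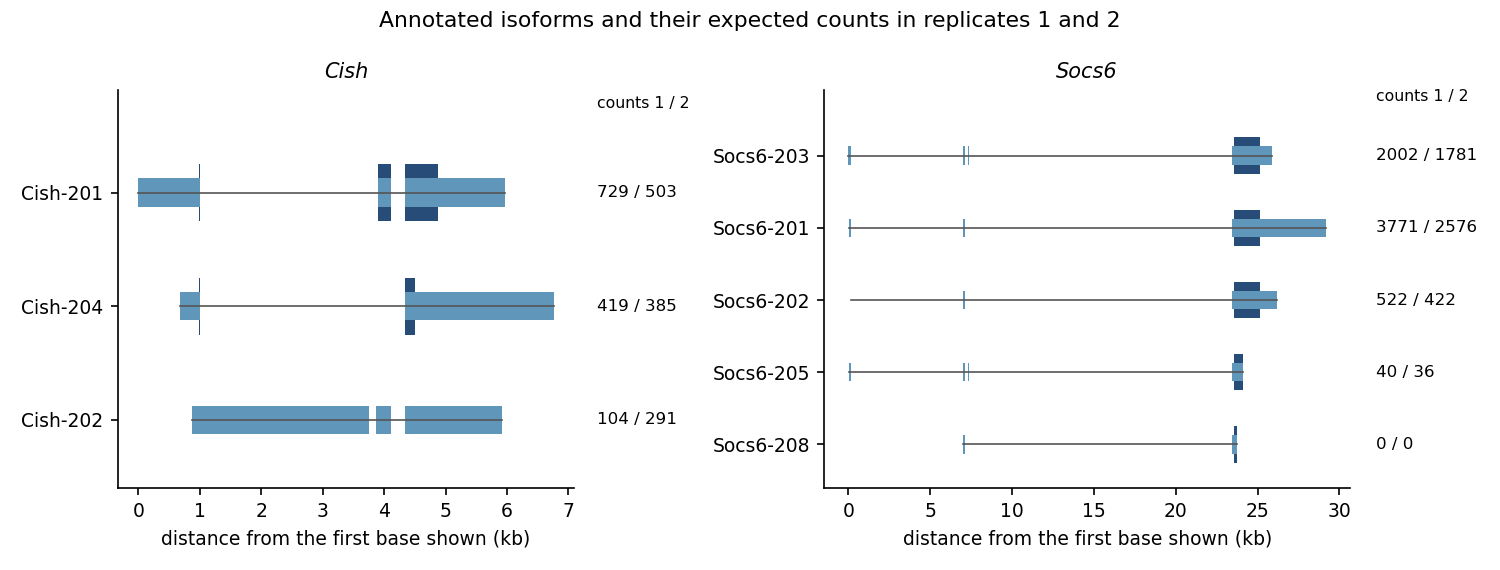
Exon models of the named Cish and Socs6 isoforms in transcription direction, with distance from the first base shown in kb; thick dark boxes are coding sequence, light boxes other exon sequence, lines introns. Expected counts in replicates 1 and 2 stand at the right, 104 and 291 for Cish-202 and 3771 and 2576 for Socs6-201.

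The map of exon models shows that Cish-202 runs through most of the first intron of Cish-201, and that Socs6-201 differs from Socs6-203 most visibly by its long last exon. Reads in the shared exons of either gene are divided by the quantifier and not assigned by sequence alone.

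Socs5 resembled Cish in having a noncoding isoform that differed between the libraries, though at low depth. Socs5-201 held 70.2% and 63.1% and Socs5-203, a shorter coding model of 978 bases, held 28.1% and 31.1%. Socs5-202, a processed transcript with 1768 of its bases in introns of Socs5-201, had 10.1 and 34.1 counts. Its ratio was 3.73 with an interval of 1.88 to 8.83, and its share was 1.69% and 5.78%, with 2.21% and 6.26% in the second quantification. Socs5-202 was chosen for description after its values were seen.

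Such a difference was common among noncoding isoforms. Of 4206 processed-transcript and retained-intron isoforms of protein-coding genes averaging at least 20 counts, 38.3% were over 2-fold higher in replicate 2 and 71.5% were higher at all, with a median log2 ratio of 0.54. The 19141 coding isoforms of that depth had a median of -0.03, and 47.2% were higher in replicate 2. Cish-202 lay above 78.2% and Socs5-202 above 83.4% of the noncoding set, so neither stood outside it. Malat1 and Neat1 were also higher in replicate 2, by 2.23 and 2.02 on the log2 scale, and their part in the isoform values was not tested.

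**Figure D4:**
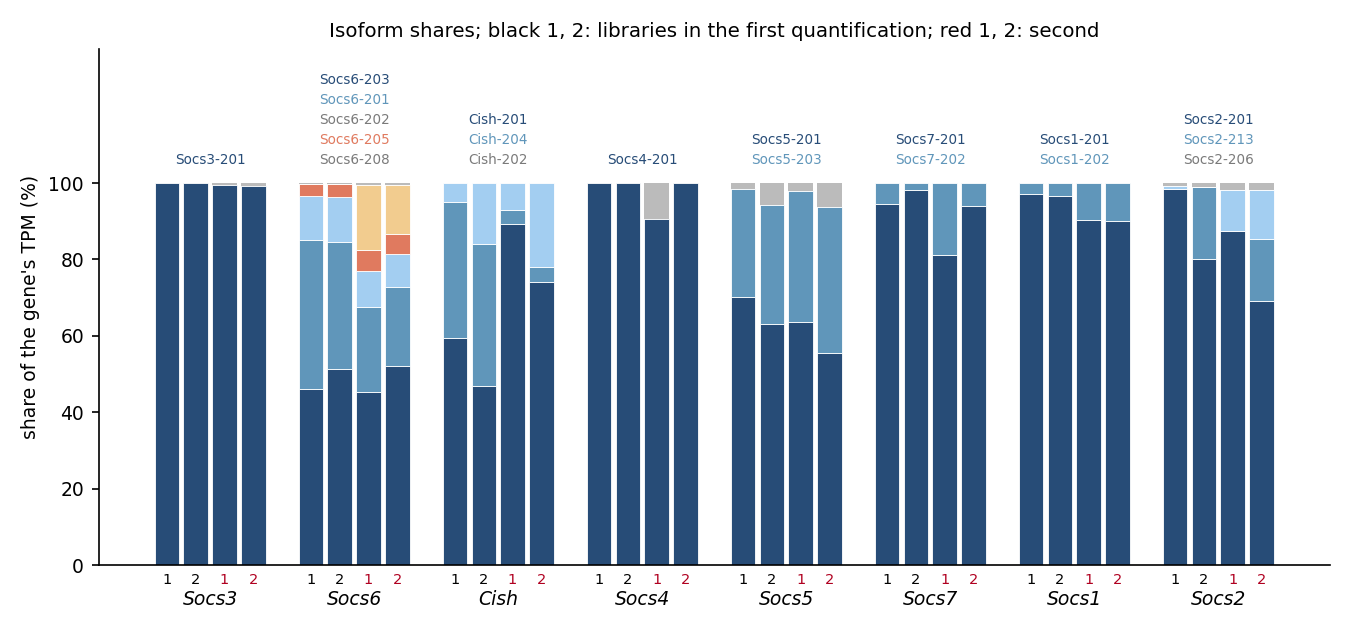
Share of each gene's TPM by isoform, in percent; for each gene the first pair of bars is the first quantification (libraries 1 and 2) and the second pair, with red numbers, the second quantification. Isoform names are in the colour order of the stacks from the bottom up, grey being all others. Socs3 is nearly a single isoform in both quantifications and Socs4 in the first, while Socs6 and Cish are divided.

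The plot of isoform shares separates members whose makeup hardly depends on the quantification, such as Socs3, from those where it does. The clearest shift between quantifications was in Cish, and the clearest shift between libraries was in Socs2, whose counts were the lowest.

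Overlapping genes contributed little. The annotation placed another gene across 2 of the members. Socs6 contains 3 processed pseudogenes, which had at most 1.00 count in a library, and Cish is overlapped on the opposite strand by Gm17040, with 1.00 and 0 counts, and Gm17041, with 0 in both. The other 6 members had no overlapping gene. Whether the counting used strand is not given in the sources used here.

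Structural features that the choice by name did not use varied across the family. The coding sequence lay in 1 exon in the leading isoform of 5 members (Socs1, Socs3, Socs4, Socs5 and Socs6), against 7.85% of 13537 protein-coding genes. Socs2-201 had 2 coding exons, Cish-201 had 3 and Socs7-201 had 9. Coding lengths ran from 594 bases in Socs2-201 to 1737 in Socs7-201.

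The 3′ untranslated regions were longer than the median of 897 bases in 7 of the 8 leading isoforms, Socs6-203 being the exception. Socs4-201, with 5182 bases, held 17 copies of ATTTA, more than 98.96% of 13124 genes. At 3.28 per kb its density was above that of 82.8% of genes. Socs3-201 held 4 in 1474 bases, or 2.71 per kb, and Cish-201 held 3 in 1087 bases, or 2.76 per kb, against a median of 1.16 per kb. Socs1-201 held 0 in 1990 bases. Socs4 had the most copies and Socs1 the fewest, and a link between these letters and the levels was not tested.

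The pathway in which the family acts was surveyed in 12 gene lists, with 1 TPM again as the threshold and the same background of 39.3%. All 4 JAK kinases were detected, with Jak1 at 31.6 and 33.4 TPM, Jak2 at 19.2 and 18.2, Tyk2 at 6.60 and 7.28 and Jak3 at 3.23 and 3.98 TPM. Of the 7 STAT factors 6 were detected, among them Stat6 at 25.4 and 27.7 TPM. Stat3, the factor downstream of interleukins 6 and 10, had 13.3 and 15.5 TPM, and Stat4 was below the threshold at 0.630 and 0.550 TPM.

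Receptors that SOCS proteins bind or restrain were present in part. Of 34 cytokine receptor chains 22 were detected, led by Il10rb at 72.9 and 81.1 TPM, Csf2rb2 at 37.4 and 49.7, Ifnar2 at 37.0 and 48.1 and Ifngr1 at 33.8 and 45.1 TPM. The median log2 ratio of replicate 2 over replicate 1 in this list was 0.36, over 26 genes averaging at least 10 counts. Among 9 growth factor receptors and adaptors 4 were detected, namely Csf1r, the receptor for macrophage colony-stimulating factor, at 142 and 205 TPM, Irs2 at 17.6 and 21, Insr at 4.08 and 4.78 and Igf1r at 1.39 and 1.90 TPM. Kit and Egfr, partners of Socs6 and Socs4, were below 1 TPM, at 0.290 and 0.360 TPM for Kit and 0.050 and 0.010 TPM for Egfr, and are named for that role outside the naming rule.

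Of 32 genes for cytokines that signal through these receptors 12 were detected, a share close to the background, and 13 had 0 counts in both libraries. Il10, the anti-inflammatory interleukin, had 105.9 and 109.0 TPM, and Osm, oncostatin M, had 25 and 37.6 TPM. Ifnb1, interferon beta, had 105.9 TPM in replicate 1 and 48.1 TPM in replicate 2, and Csf2 had 18.9 and 36.5 TPM. The log2 ratios of their scaled counts were -1.19 for Ifnb1 and 0.89 for Csf2. Il6, named after its values were seen, had 9.00 and 3.95 TPM, with a log2 ratio of -1.13 in scaled counts. The libraries thus differed over 2-fold in Ifnb1 and Il6, where Socs3 was at -0.03 and Socs1 at -0.35 on the same scale.

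The machinery that the SOCS box recruits was detected throughout. All 7 genes of the cullin 5 ligase passed the threshold, with a median of 20.2 TPM, above every member of the family except Socs3. Nedd8, the modifier that activates cullins, had 73.2 and 67.2 TPM, Elob, elongin B, had 56.8 and 58.6, Ube2f, a conjugating enzyme for Nedd8, had 41.5 and 33.4 and the ring protein Rnf7 had 21 and 19.5 TPM. The 3 genes of the related cullin 2 ligase were detected as well. Of 26 other genes with a SOCS box 10 were detected, a share close to the 39.3% of all protein-coding genes, with 5 of 18 of the Asb group and 5 of 8 of the Spsb, Wsb and Rab40 groups. Wsb2 at 34.4 and 38.7 TPM and Wsb1 at 30.5 and 31.4 TPM led that list, so 2 SOCS-box genes outside the family stood above all its members but Socs3.

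Other brakes on the pathway were broadly present. All 13 other inhibitors of JAK-STAT signalling were detected, with a median of 8.63 TPM, led by the phosphatase Ptprc (CD45) at 46.5 and 59.2 TPM, the phosphatase Ptpn6 (SHP-1) at 26.5 and 26.6, Ptpn1 at 22.7 and 21.3 and the ubiquitin ligase Cbl at 19.8 and 23.5 TPM. The 4 Toll pathway genes on the list were detected, with Rela, the NF-kB subunit p65, at 31.6 and 32.1 TPM, Irak1 at 11.9 and 12, Traf6 at 4.82 and 4.93 and Tirap at 1.24 and 1.10 TPM. Tirap, an adaptor that SOCS1 is known to target, was as low as Socs1 itself.

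STAT targets and other early inhibitors spanned a wide range of levels. Of 7 STAT targets 6 were detected, with Pim1 at 281 and 264 TPM, Mcl1 at 229 and 261, Irf1 at 106 and 117 and Bcl3 at 18.3 and 21.5 TPM, and Cebpd was below the threshold at 0.900 and 0.730 TPM. All 10 genes of a list of other early inhibitors of inflammation were detected, with a median of 169.9 TPM. Nfkbia, the NF-kB inhibitor, had 550 and 571 TPM, the mRNA-destabilising protein gene Zfp36 had 347 and 349, Tnfaip3 (A20) had 333 and 346 and the phosphatase gene Dusp1 had 263 and 265 TPM. Socs3 at 219 and 223 TPM lay above the median of that list, and the other 7 SOCS members lay below it. Mean levels in the list ran from 4.86 to 561 TPM, so Socs6 also lay within its range.

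**Figure D5:**
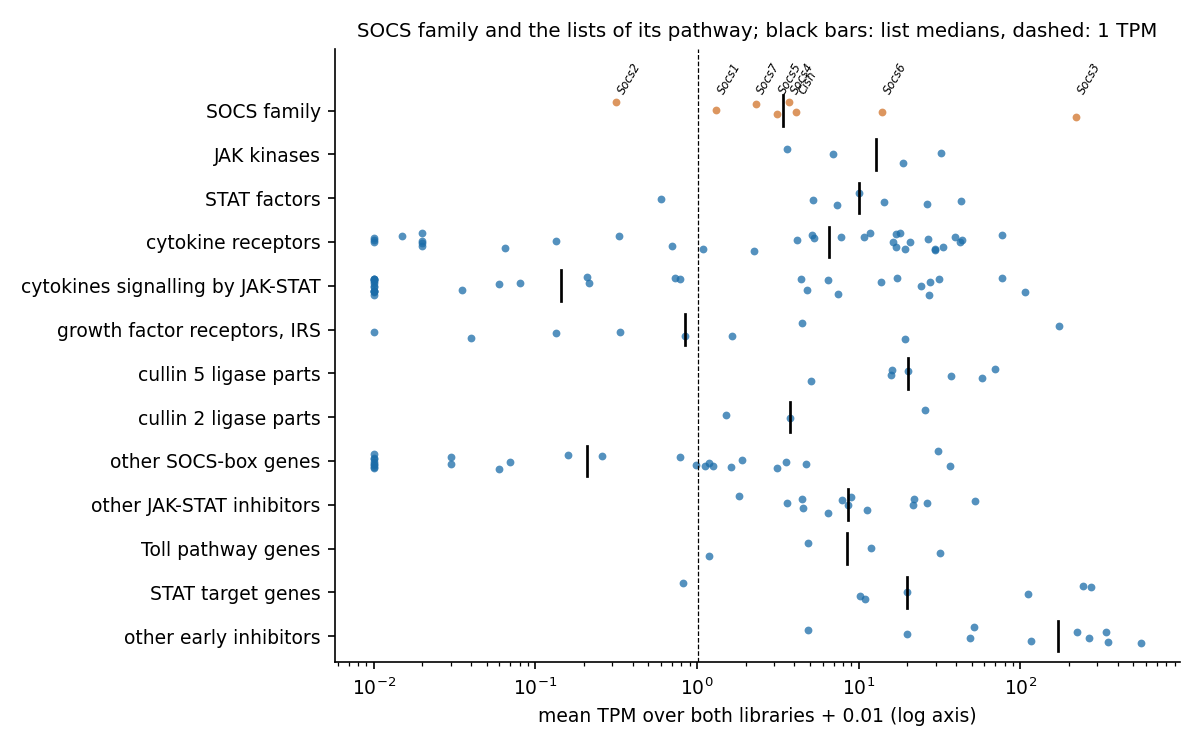
Mean TPM over both libraries plus 0.01 (log axis) of the 8 SOCS members (orange) and of the genes of 12 pathway lists (blue), each point a gene; black bars are list medians and the dashed line is 1 TPM. Socs3 sits above the median of the other early inhibitors, which was 169.9 TPM, and the remaining members between Socs2 and Socs6 overlap most lists.

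The plot of pathway lists shows the family spanning nearly the whole range of the detected pathway, with Socs3 at its upper end. Genes at 0 TPM appear in the lists of receptors, cytokines, growth factor receptors and other SOCS-box genes.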

How the data were processed

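The deposited tables were made by the authors in 2 ways, per the file headers and the readme files: a first quantification from transcriptome alignments, with a gene and a transcript table, and a second directly from the reads, with a transcript table, all on mm10 and annotation M21. For the aligner, the quantifiers and any use of strand, names and settings were not given in the sources used here. Expected counts are the authors' estimated fragments per feature, not normalized. TPM values were deposited scaled over all entries of a table. The percent of a gene's TPM per isoform, and the posterior SD of a count, read as a score of how uncertainly reads were divided, are deposited columns of the first quantification.

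From these, 26345 entries naming no annotated gene were left out (0.251% and 0.204% of the count), and second-quantification values were summed per gene, where 86 genes had none. Expected counts were rounded and scaled by TMM (edgeR 4.0.16, R 4.3.3) over genes averaging at least 10 counts, and ratios of counts with 0.5 added were given with Clopper-Pearson 95% intervals. The ratio step was tested on simulated data. No p-value was computed. All 8 members were named, every isoform with a mean share of 5% or more in either quantification, and of each list at most the 4 highest genes, with those below 1 TPM where 4 or fewer. Likeness of level used log2(TPM + 0.1). Members and lists were chosen with earlier results of these data known. The alternatives tried were other thresholds, TPM rescaled over nuclear-encoded protein-coding genes, the second quantification, DESeq2 1.42.0 size factors, library totals, TMM without a filter, 5 added to counts, shares of counts, and leaving out each library.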

Additional observations from a re-analysis of the deposited data

How the results depend on the processing

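The count of 7 members at 1 TPM or more was also 7 at 0.5 TPM and with either library left out, and 6 at 2 TPM. It was 6 on deposited TPM of the second quantification, where Socs1 averaged 0.58 TPM, and 8 on TPM over nuclear-encoded protein-coding genes. The Socs3 share of family TPM was 88.5%, 86.5% in the second quantification, and 88.1% to 88.8% with 1 library left out. No member averaging at least 100 counts was over 2-fold apart under any scaling tried (TMM with and without a filter, DESeq2 size factors, library totals, 5 added, second quantification). Over all 8 members, Socs2 included, the log2 ratios ran from -0.43 to 0.06 with library totals and from -0.42 to 0.05 in the second quantification. Socs5 had a ratio just below 0 in the second quantification, and the cause was not tested. The share of the leading isoform moved by more than the SD between libraries for 6 of 8 members in the second quantification, most for Cish, with 81.7% against 53.1%, and in shares of counts for 4 of 8, where Socs5-201 held 91.0% against 66.7% and Socs6-203 held 34.2% against 48.8%. The count of other SOCS-box genes at 1 deposited TPM was 5 in the second quantification against 10 in the first. Deposited TPM was lower for all 8 members in the second quantification, so counts at 1 deposited TPM are not on a like scale. On TPM over nuclear-encoded protein-coding genes the means of Socs1, Socs3 and Cish were lower in the second, and those of the other members higher. Socs3 averaged 1018 TPM there in the first quantification and 963 TPM in the second. No paired analysis was possible because there was 1 group. With 2 libraries, an SD has little precision, and the depth limits Socs2 and the small isoforms most.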
